A study of Homo sapiens with 72 samples.

Results

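The dual-specificity MAP kinase phosphatases described here were 10 genes, DUSP1, DUSP2, DUSP4, DUSP5, DUSP6, DUSP7, DUSP8, DUSP10, DUSP14 and DUSP16, taken by name from 60279 Ensembl genes in each file, and all 10 identifiers were found. They were measured by standard population RNA-seq in U2OS cells, a human osteosarcoma line, in 72 wells. The 18 control wells received DMSO, and the other 54 wells received triptolide, homoharringtonine, nilotinib, pyrazolanthrone, MK-2206 or miglitol and each compound was given at 100 nM, 1000 nM and 10000 nM to 3 wells a dose. All wells were collected after 12 h, and no genetic change separated the groups. Triptolide blocks transcription through the TFIIH complex, homoharringtonine blocks translation at the ribosome, nilotinib inhibits the BCR-ABL kinase and some other tyrosine kinases, pyrazolanthrone inhibits the JNK kinases, MK-2206 inhibits AKT, and miglitol inhibits intestinal glucosidases. All wells came from 1 cell line, and nothing in the labels says that wells of a group were separate cultures, so p-values measure the spread between wells.

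MAP kinases carry signals from growth factors and stress to the nucleus, and they are active only when a threonine and a tyrosine in their activation loop are both phosphorylated. Dual-specificity phosphatases remove both phosphates and so end the signal. Many of them are transcribed in answer to the kinase they switch off, from short-lived mRNAs, which makes them feedback inhibitors. DUSP1, DUSP2, DUSP4 and DUSP5 are the inducible nuclear enzymes, DUSP6 and DUSP7 act on ERK in the cytoplasm, DUSP8, DUSP10 and DUSP16 prefer p38 and JNK, and DUSP14 is a small enzyme without the kinase docking domain of the others.

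The genes differed in the sequence just before their transcription start. RefSeq promoters of GRCh38.p14, running from 250 bases before to 50 bases after the start, were found for 8 of the 10 genes and gave 9 sequences, because DUSP10 has 2 starts. DUSP4 and DUSP5 had no entry. The cAMP response element TGACGTCA, the site bound by CREB family factors, was present in 2 of the 9 sequences, those of DUSP1 and DUSP8, against 1.85% of 35116 promoters of the same length. Its core TGACG, which lies inside the full element on both strands, was in 3 of 9 sequences and in 24.6% of all promoters. DUSP1 had the full element at -125 and a TATA box (TATAAA) at -30 from the start, and DUSP8 had full elements at -118 and -74. The 4 promoters below are shown because DUSP1 and DUSP8 hold the element, DUSP2 had the largest rise among the 10 genes and holds none, and DUSP7 went down with homoharringtonine. Capitals mark TGACG in either direction and the TATA box, and all 4 lie on the minus strand, at chr5:172771146-172771445, chr11:1572222-1572521, chr2:96145391-96145690 and chr3:52056522-52056821 in this order.
DUSP1: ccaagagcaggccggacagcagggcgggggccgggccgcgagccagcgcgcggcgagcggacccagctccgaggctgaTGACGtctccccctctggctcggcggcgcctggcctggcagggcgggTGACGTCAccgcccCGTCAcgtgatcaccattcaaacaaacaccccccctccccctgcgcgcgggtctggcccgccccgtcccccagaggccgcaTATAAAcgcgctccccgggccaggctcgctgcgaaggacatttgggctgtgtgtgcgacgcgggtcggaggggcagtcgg
DUSP8: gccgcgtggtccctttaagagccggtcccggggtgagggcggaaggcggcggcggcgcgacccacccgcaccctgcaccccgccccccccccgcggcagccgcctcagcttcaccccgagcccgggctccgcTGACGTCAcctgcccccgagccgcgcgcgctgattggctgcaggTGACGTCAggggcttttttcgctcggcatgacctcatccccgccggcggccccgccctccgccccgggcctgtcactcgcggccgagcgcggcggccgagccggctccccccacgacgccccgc
DUSP2: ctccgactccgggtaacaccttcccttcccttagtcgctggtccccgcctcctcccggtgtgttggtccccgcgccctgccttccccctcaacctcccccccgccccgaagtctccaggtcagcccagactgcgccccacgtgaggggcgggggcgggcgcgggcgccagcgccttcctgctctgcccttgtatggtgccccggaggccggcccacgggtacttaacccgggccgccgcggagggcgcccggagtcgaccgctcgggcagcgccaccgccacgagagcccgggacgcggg
DUSP7: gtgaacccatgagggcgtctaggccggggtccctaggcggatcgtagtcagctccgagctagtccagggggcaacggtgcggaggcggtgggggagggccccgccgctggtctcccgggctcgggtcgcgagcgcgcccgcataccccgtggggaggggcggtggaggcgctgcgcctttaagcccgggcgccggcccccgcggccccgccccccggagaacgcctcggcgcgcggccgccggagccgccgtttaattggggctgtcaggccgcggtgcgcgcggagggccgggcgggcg
The GC box GGGCGG was in 8 of 9 sequences, against 45.0% of all promoters, with DUSP6 as the exception. The E-box CACGTG was in the promoters of DUSP1 and DUSP2, against 7.26%. The AP-1 site TGANTCA, found in 7.71% of promoters, the ETS site CCGGAAG, found in 10.3%, and the CArG box, found in 1.29%, were in none of the 9 windows. All motifs were searched on both strands, and a match is a string of letters and not a measured site.

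Most of the 10 genes are short and have few exons. In the GENCODE annotation of GRCh38 they spanned a median of 15.6 kb with 4 exons, against 28.3 kb and 8 exons over 18969 protein-coding genes. DUSP2 was the shortest at 2.27 kb, at chr2:96143169-96145440 on the minus strand. DUSP1 spans 3.10 kb at chr5:172768096-172771195, also on the minus strand. DUSP10, at 40.7 kb, and DUSP16, the longest at 89.6 kb, were above the median of protein-coding genes. The letters ATTTA, the core of AU-rich elements that shorten the life of mRNAs, occurred a median of 3 times in the 3′ UTR of the 10 genes and 2 times over all protein-coding genes. The 3′ UTRs of the 10 genes were longer, with a median of 1502 bases against 1074. Per kb the median density was 1.94 in the 10 genes and 1.54 over all protein-coding genes. The highest densities were 6.01 in DUSP1, 4.77 in DUSP14 and 4.59 in DUSP2, and the 3′ UTRs of DUSP5 and DUSP7 held none.

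Library depth was the sum of expected counts, which are estimates of the reads from each gene, and it ranged from 70414 to 68270780 with a median of 38316802. Of the 72 libraries, 3 held fewer than 10 mil counts: triptolide 100 nM replicate 2 with 70414, DMSO replicate 10 with 458921 and triptolide 1000 nM replicate 1 with 9520374. The wells also differed along a gradient of GC content and fragment length that ran within DMSO. Mitochondrially encoded mRNAs took 0.138% to 0.367% of counts in DMSO and 1.01% to 1.15% with triptolide at 10000 nM, so a scaling to these mRNAs lowered the median of all genes to -2.92 log2 at that dose, while TMM scaling, which assumes that most genes do not change, left it at -0.16. Changes below are relative to the TMM scale, and fewer cells in a well and less RNA per cell cannot be told apart in these data. The mesenchymal markers VIM and FN1 had 2123 CPM and 1432 CPM in DMSO and the osteoblast factor RUNX2 7.78 CPM, whereas COL1A2 had 0.132 CPM and TWIST1 was at 0. The epithelial, blood and endothelial markers were between 0.00154 CPM for CD3E and 1.62 CPM for EPCAM. With triptolide at 10000 nM 2 of 3 epithelial markers tested were called higher, CDH1 and EPCAM, which reached 2.61 and 4.50 CPM, as were 1 of 1 blood marker, 0 of 2 endothelial markers and 2 of 4 mesenchymal markers, FN1 by 1.75 log2. With homoharringtonine at 10000 nM 2 epithelial markers were called higher and 1 lower, 1 of 1 blood marker higher, 0 of 2 endothelial markers, and 1 of 4 mesenchymal markers lower, RUNX2 with -2.21 log2. The part of these changes in the results was not tested.

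In DMSO the family spanned a wide range of levels. On the TPM scale, which accounts for transcript length and so allows genes to be compared, DUSP14 was first at 70.0 ± 6.51 TPM and DUSP7 was next at 33.9 ± 3.68 TPM (SD, n = 18). DUSP1 had 16.8 ± 2.11 TPM, DUSP16 14.3 ± 9.10 TPM, DUSP2 11.5 ± 3.20 TPM and DUSP5 9.14 ± 2.07 TPM. These 4 neighbours overlapped over the wells. The highest DUSP16 value, 50.1 TPM, was in the shallow DMSO replicate 10, which held 19 counts of the gene, and its CPM in DMSO lay between 32.1 and 51.4. DUSP8 had 5.43 ± 1.25 TPM and DUSP10 4.20 ± 0.771 TPM, again with overlapping wells. DUSP6, the cytoplasmic ERK phosphatase, was low at 0.443 ± 0.189 TPM. DUSP4 was at 0.0100 ± 0.0114 TPM, with 0 to 4 counts in any DMSO well, and it never passed the filter on low counts, so 9 of the 10 genes were tested against DMSO. The sum of all 10 was 166 ± 8.11 TPM, of which DUSP14 gave 42.3%.

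**Figure D1:**
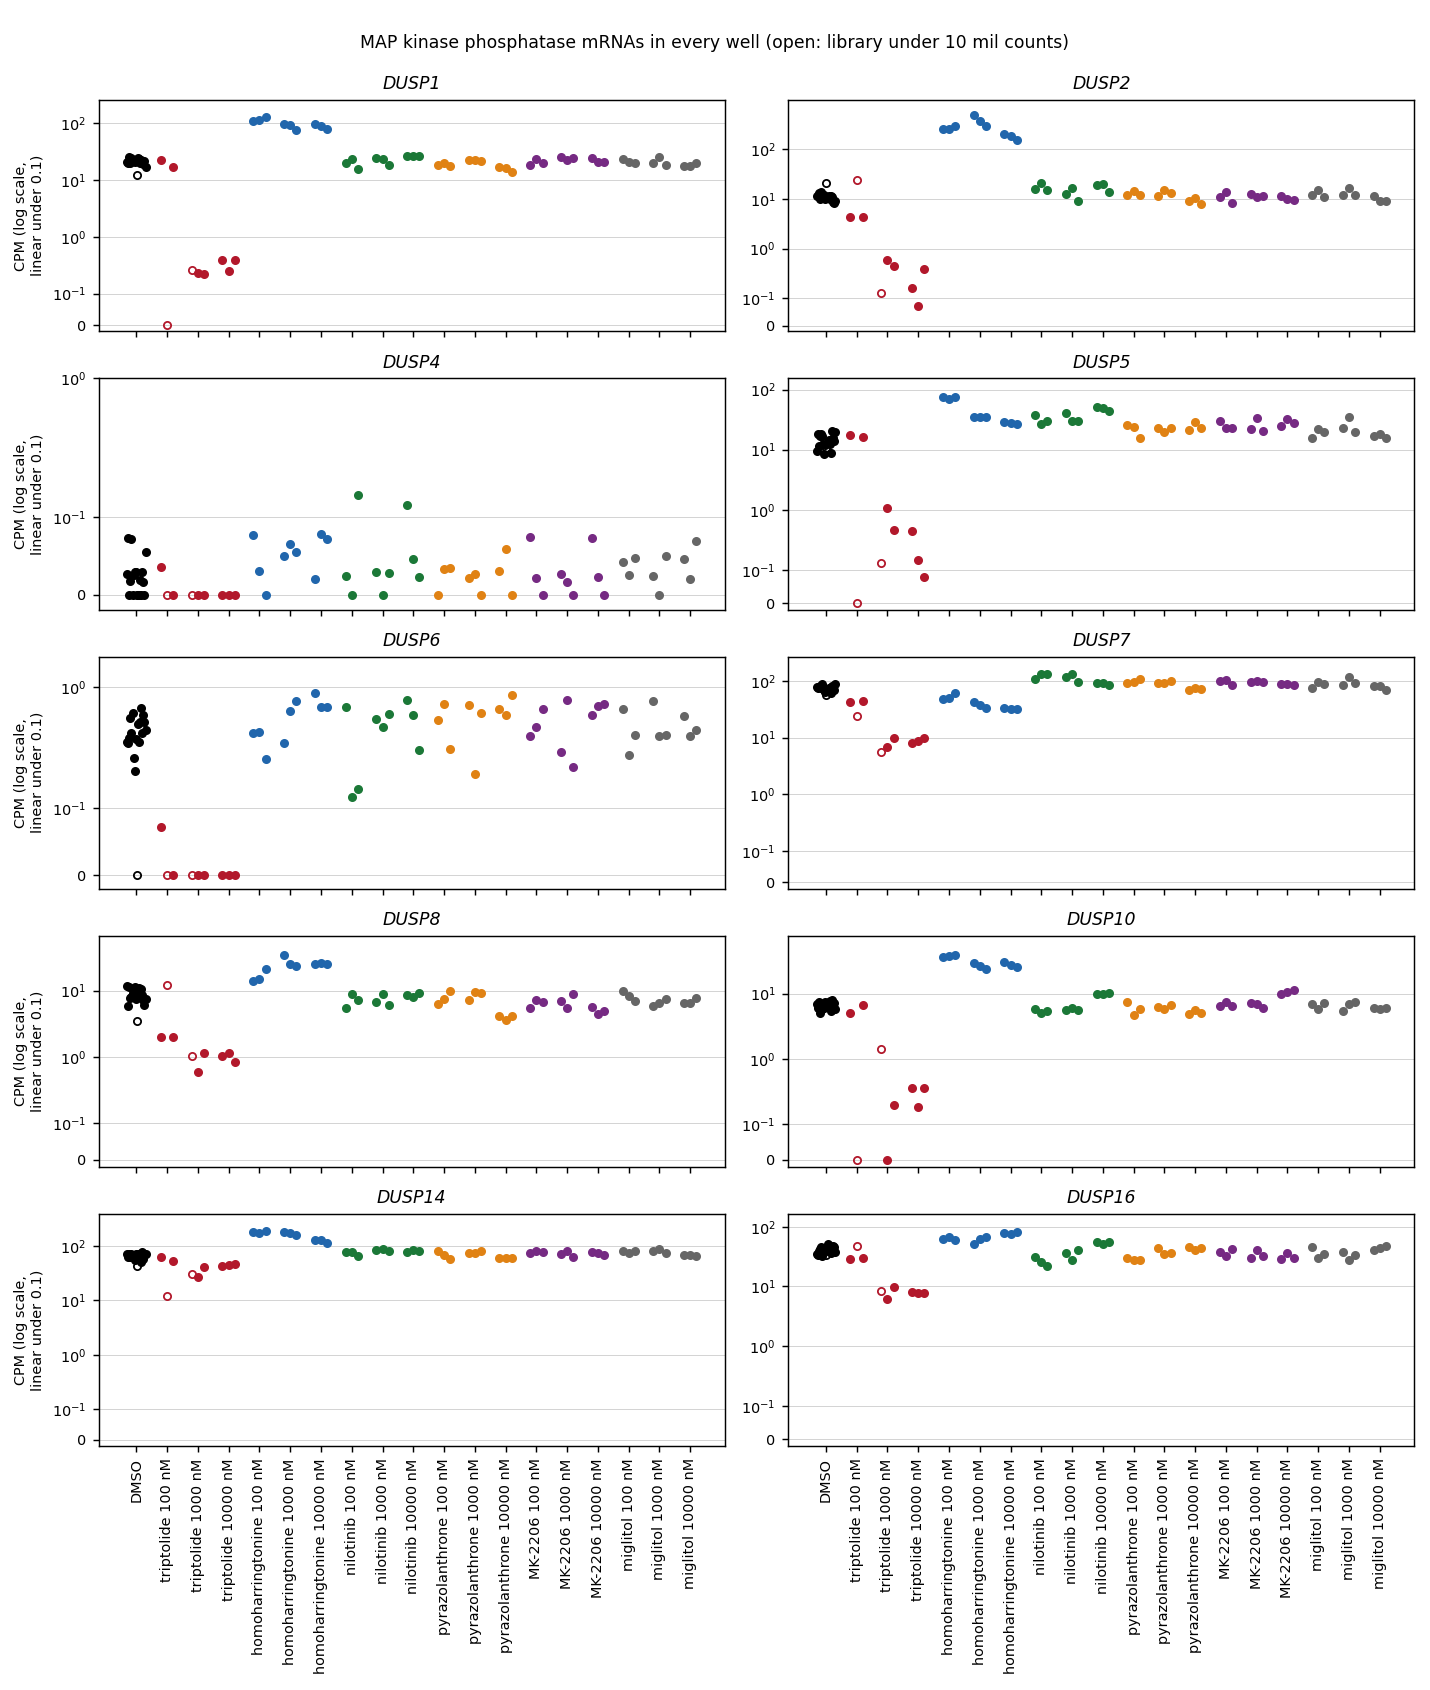
CPM of each of the 10 genes in every one of the 72 wells, on a log axis that is linear under 0.1 CPM, with groups along the x axis and 1 point per well (open points are libraries under 10 mil counts). With triptolide at 1000 nM and 10000 nM the wells of DUSP1, DUSP2, DUSP5, DUSP7, DUSP8, DUSP10 and DUSP16 lie below every DMSO well, and with homoharringtonine those of DUSP1, DUSP2, DUSP5, DUSP8, DUSP10 and DUSP14 lie above every DMSO well.

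Triptolide lowered all tested members at 1000 nM, to different depths. At 10000 nM the mean CPM was 1.65% of the DMSO mean for DUSP1, 1.82% for DUSP2, 1.56% for DUSP5 and 4.56% for DUSP10, and it was 12.1% for DUSP7, 11.8% for DUSP8, 19.5% for DUSP16 and 69.0% for DUSP14. In deposited TPM the ratio to DMSO was lower for some: 0.399 for DUSP14, 0.0912 for DUSP16, 0.0695 for DUSP7, 0.0262 for DUSP10 and 0.00974 for DUSP1. The ratios of DUSP2, DUSP5 and DUSP8 moved by less than their SD. A gene was called when edgeR's quasi-likelihood test gave a Benjamini-Hochberg adjusted p under 0.05 over all genes tested and the log2 fold change was past 1 in either direction. All comparisons with DMSO share the same 18 wells. At 1000 nM all 9 tested members fell, against 30.4% of all genes tested, and at 10000 nM 8 of 9 fell, against 30.3%. The median log2 fold change over the members was -4.08 at 1000 nM and -4.49 at 10000 nM, where the median of all genes was -0.22 and -0.16. At 100 nM 3 of 9 fell, against 21.0% of all genes. With mitochondrial scaling, which moved the median of all genes to -1.82 at this dose, 9 of 9 were called lower. That median is itself past the fold threshold, and the share of all genes called under this scaling is not given here. The 9 of 9 thus has no background beside it.

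DUSP1, the nuclear phosphatase of p38, JNK and ERK, had 12.3, 21.6 and 25.9 CPM as the lowest, median and highest of the 18 DMSO wells. Triptolide at 1000 nM left 0.259, 0.234 and 0.219 CPM, and at 10000 nM 0.397, 0.255 and 0.397 CPM. All 6 wells were far below the lowest DMSO well. The log2 fold change was -6.56 ± 0.24 (SE) at 1000 nM, with an adjusted p of 2.12e-17, and -5.98 ± 0.21 at 10000 nM, with an adjusted p of 4.92e-18. At 100 nM the 2 deeper wells had 22.2 and 16.9 CPM, inside the DMSO range, and the well of 70414 counts had 0 counts of DUSP1. The value at that dose was -0.17 ± 0.17 and was not called, whereas with mitochondrial scaling it was -1.88 and was called.

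DUSP2, which acts on ERK and p38 in the nucleus, had 8.28, 11.3 and 21.1 CPM as the lowest, median and highest DMSO wells. With triptolide it had 4.30 and 4.43 CPM in the 2 deeper wells at 100 nM, then 0.129, 0.585 and 0.437 CPM at 1000 nM and 0.159, 0.0728 and 0.397 CPM at 10000 nM. Its shallow well at 100 nM held 2 counts, which scale to 24.2 CPM, and the fit, which weighs wells by depth, gave -1.27 ± 0.25 there with an adjusted p of 0.000103 and the call stood without that library. DUSP2 thus fell at all 3 doses, by 1.27, 4.77 and 5.77 on the log2 scale from 100 nM upwards.

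DUSP5, the ERK-specific nuclear phosphatase, had 17.4 and 16.1 CPM at 100 nM in the deeper wells, against a DMSO range of 8.54 to 20.6 CPM with a median of 13.8. Its log2 fold change at this dose was 0.19 ± 0.26, which was not called and turned to -1.47 with mitochondrial scaling. It had 0.129, 1.05 and 0.461 CPM at 1000 nM, and 0.437, 0.146 and 0.0794 CPM at 10000 nM. The fall was -4.78 ± 0.40 at 1000 nM, with an adjusted p of 1.13e-10, and -6.05 ± 0.42 at 10000 nM, with an adjusted p of 2.31e-12. Over the 9 triptolide wells DUSP5 had the steepest dose trend among the members tested, at -3.29 ± 0.38 log2 per 10-fold dose with an adjusted p of 9.86e-05. Of 7 members tested for this trend, 5 fell with dose, DUSP2, DUSP5, DUSP7, DUSP10 and DUSP16, against 18.1% of all genes. DUSP1, DUSP4 and DUSP6 did not pass the filter and were not tested for the trend.

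Among the cytoplasmic ERK phosphatases, DUSP6 was at 0 counts in all 6 wells of 1000 nM and 10000 nM. The DMSO wells held 0 to 35 counts of it, with a median of 0.415 CPM, the well at 0 being the shallow replicate 10. With a floor of 3 counts over the group, DUSP6 was at least 7.96-fold lower at 1000 nM and at least 10.8-fold lower at 10000 nM. At 100 nM 2 counts were found in the 3 wells, all in 1 well. The plain mean of the 3 wells was 5.71% of the DMSO mean and weighs the well of 70414 counts like the deeper ones. Counts pooled over the wells had a 95% interval of 1.57% to 46.7%, which covers counting error only and is not centred on that mean. The fit, which weighs wells by depth, gave 0.125 of the DMSO level. DUSP6 was called lower at all 3 doses. DUSP4 was also at 0 counts in these 6 wells, but DMSO lay under the same floor, so no fold is given.

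DUSP7 had 56.2, 74.2 and 88.4 CPM as the lowest, median and highest DMSO wells. Triptolide left 42.9, 24.2 and 44.1 CPM at 100 nM, where the well of 24.2 CPM held 2 counts. At 1000 nM the wells had 5.56, 6.67 and 9.64 CPM, and at 10000 nM 8.02, 8.73 and 9.89 CPM. With all libraries kept, DUSP7 was the only member below every DMSO well at all 3 doses. Without the libraries under 10 mil counts, DUSP2, DUSP6, DUSP8 and DUSP16 were below every DMSO well at all 3 doses as well. The log2 fold changes of DUSP7 were -0.79 ± 0.13 at 100 nM, -3.30 ± 0.16 at 1000 nM and -3.10 ± 0.13 at 10000 nM. The value at 100 nM passed the adjusted p, at 1.99e-05, and not the fold threshold.

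The p38 and JNK phosphatases all fell at 1000 nM and 10000 nM. DUSP10 had 5.08, 6.79 and 7.90 CPM as the lowest, median and highest DMSO wells, and 1.42, 0 and 0.194 CPM at 1000 nM. At 10000 nM it had 0.357, 0.182 and 0.357 CPM, a log2 fold change of -4.49 ± 0.22 with an adjusted p of 4.15e-15. The well of 1.42 CPM was the library of 9520374 counts. DUSP8 fell already at 100 nM, by 2.07 ± 0.32 on the log2 scale, with 1.99 CPM in each of the deeper wells against a DMSO median of 8.22. At 1000 nM it had 1.03, 0.585 and 1.14 CPM and at 10000 nM 1.03, 1.13 and 0.834 CPM, with log2 fold changes of -3.17 ± 0.30 and -3.16 ± 0.27. DUSP16 kept the most of the 3, with 8.40, 6.20 and 9.62 CPM at 1000 nM and 8.02, 7.68 and 7.90 CPM at 10000 nM, from a DMSO median of 39.4. Its log2 fold changes there were -2.32 ± 0.16 and -2.41 ± 0.14.

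DUSP14 had the smallest changes of the tested members at 1000 nM and 10000 nM. Its DMSO wells had 42.1, 69.3 and 75.9 CPM as lowest, median and highest, and triptolide gave 30.8, 27.4 and 40.7 CPM at 1000 nM and 43.2, 44.8 and 47.4 CPM at 10000 nM. At 10000 nM the wells were above only the lowest DMSO well on this scale, which was the shallow replicate 10. They were below the other 17 DMSO wells, the lowest of which had 50.6 CPM. In deposited TPM they had 27.5 to 28.5, below the lowest DMSO well of 51.4 TPM. The log2 fold change at 1000 nM was -1.01 ± 0.13, with an adjusted p of 2.81e-07, and it lay at the threshold: without replicate 1 it was -0.97 and without replicate 2 -0.90, both uncalled. At 10000 nM it was -0.59 ± 0.11 and was not called, and with library sizes alone it was -1.13 and with mitochondrial scaling -3.39, both called. As the rest of the family fell, the share of DUSP14 in the summed TPM went from 42.3% in DMSO to 85.4% at 10000 nM, where the sum was 32.8 ± 0.781 TPM.

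The step from 100 nM to 1000 nM was tested directly for the 6 members that passed the filter, and 4 of them fell, DUSP2, DUSP7, DUSP10 and DUSP16, against 16.8% of all genes. DUSP1, DUSP4, DUSP5 and DUSP6 did not pass the filter and were not tested for this step. The filter treats the 100 nM well of 70414 counts like the deeper wells, in which DUSP1 and DUSP5 were not low. Without the libraries under 10 mil counts the mean of DUSP1 was 19.6 CPM at 100 nM and 0.226 CPM at 1000 nM. That of DUSP5 was 16.7 CPM and 0.757 CPM. From 1000 nM to 10000 nM none of 5 members tested was called, against 0.0256% of all genes by edgeR. At an unadjusted p under 0.05 there was 1 member, DUSP14, and DESeq2 called 0.

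Homoharringtonine raised several members, DUSP2 by far the most. At 100 nM 5 of 9 members rose, against 15.6% of all genes, at 1000 nM 6 of 9 rose, against 21.5%, and at 10000 nM 4 of 9 rose, against 23.7%. The 1 member called lower was DUSP7 at 10000 nM, against 23.4% of all genes. DUSP1, DUSP2 and DUSP10 rose at all 3 doses. The median log2 fold change of the members was 1.46, 1.37 and 0.93 from 100 nM upwards, beside -0.03, -0.01 and -0.04 for all genes. The summed TPM was 575 ± 22.6, 686 ± 71.8 and 489 ± 43.98 TPM (SD, n = 3), against 166 ± 8.11 TPM in DMSO.

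**Figure D2:**
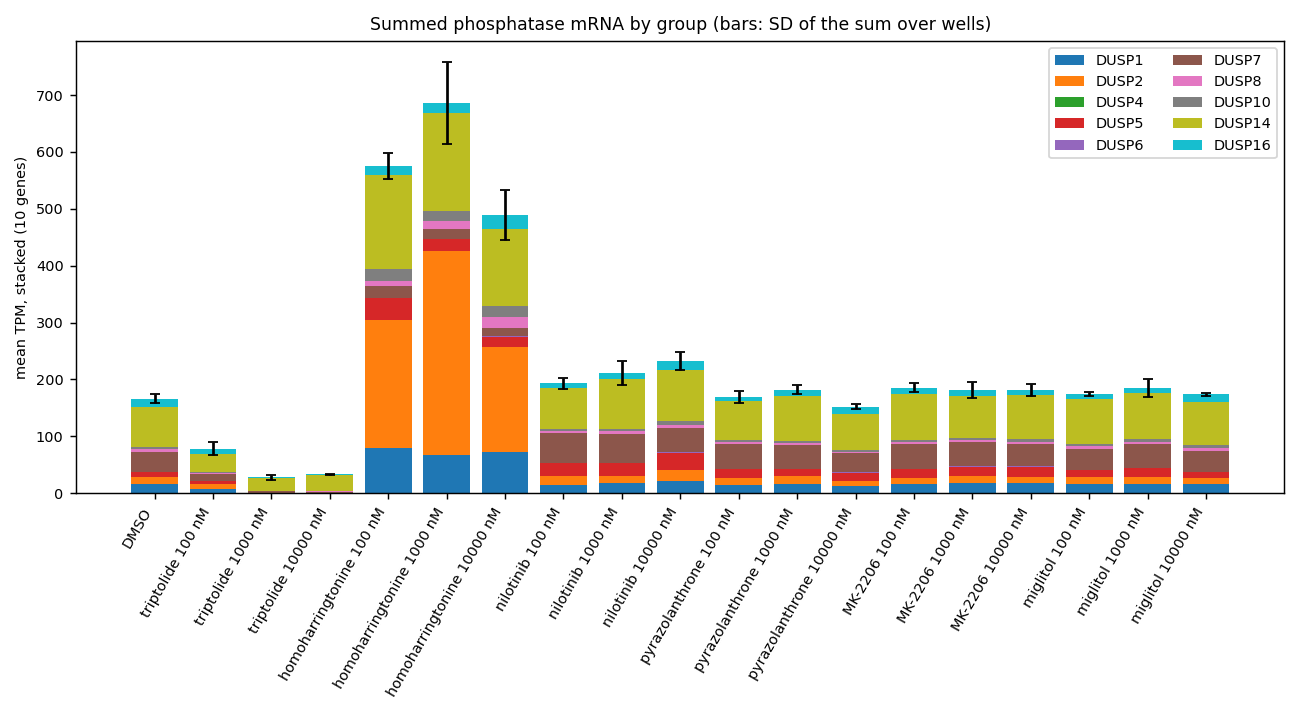
Mean TPM of the 10 genes stacked by group, with bars for the SD of the sum over wells. The sum was 166 TPM in DMSO, 32.8 TPM with triptolide at 10000 nM and 686 TPM with homoharringtonine at 1000 nM, where DUSP2 made up 52.0%.

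DUSP2 accounted for most of the increase. Homoharringtonine gave 250, 261 and 297 CPM at 100 nM, 494, 377 and 297 CPM at 1000 nM and 207, 187 and 155 CPM at 10000 nM, from a DMSO median of 11.3. Every treated well was above the highest DMSO well of 21.1 CPM. The log2 fold changes were 4.62 ± 0.11, 5.14 ± 0.12 and 4.03 ± 0.11, with adjusted p of 2.62e-20, 5.61e-20 and 3.37e-19. At 1000 nM this was a 35.2-fold rise. The share of DUSP2 in the summed TPM was 6.94% in DMSO and 52.0% at 1000 nM, which made it the most abundant gene of the family on the TPM scale.

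DUSP1 had 110, 116 and 130 CPM at 100 nM, 99.0, 93.7 and 77.3 CPM at 1000 nM and 95.9, 89.1 and 79.8 CPM at 10000 nM. These 9 wells lay above the highest DMSO well of 25.9 CPM. The log2 fold changes were 2.48 ± 0.09, 2.07 ± 0.10 and 2.02 ± 0.09, with an adjusted p of 7.61e-15 at 1000 nM. DUSP10 had log2 fold changes of a similar size, with 37.3, 38.004 and 39.2 CPM at 100 nM and 29.4, 26.6 and 24.1 CPM at 1000 nM. At 10000 nM it had 30.5, 27.9 and 25.3 CPM, and its log2 fold changes were 2.56 ± 0.10, 2.03 ± 0.11 and 2.07 ± 0.10.

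DUSP5 rose most at the lowest dose. It had 74.2, 68.4 and 76.5 CPM at 100 nM, 35.1, 35.1 and 35.2 CPM at 1000 nM and 28.6, 27.4 and 26.9 CPM at 10000 nM. All wells were above the DMSO maximum of 20.6 CPM, and the wells of the 3 doses did not overlap each other. The log2 fold changes were 2.37 ± 0.17, 1.30 ± 0.18 and 0.93 ± 0.20, the last not called. The step from 100 nM to 1000 nM was -1.08 ± 0.13 with an adjusted p of 0.00235, which made DUSP5 the 1 member of 9 called in that step, against 4.44% of all genes, and the dose trend was -0.73 ± 0.08 log2 per 10-fold dose. Under a replicate block the step was -1.08 and was not called.

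DUSP8 had a dose trend of 0.28 ± 0.12 log2 per 10-fold dose, which was not called, with an adjusted p of 0.0757. Its wells had 14.1, 14.8 and 20.9 CPM at 100 nM, 33.9, 25.4 and 23.8 CPM at 1000 nM and 25.6, 26.4 and 24.9 CPM at 10000 nM, all above the DMSO maximum of 11.9. It was called at 1000 nM, at 1.67 ± 0.18, and at 10000 nM, at 1.54 ± 0.16, and had 0.95 ± 0.19 at 100 nM. DUSP14 had 177, 174 and 191 CPM at 100 nM, 182, 175 and 157 CPM at 1000 nM and 129, 130 and 115 CPM at 10000 nM, from a DMSO median of 69.3. It was called at the lower 2 doses, with 1.46 ± 0.09 and 1.37 ± 0.10, and had 0.89 ± 0.10 at 10000 nM. DUSP16 had values of 0.66 ± 0.10, 0.57 ± 0.11 and 0.92 ± 0.10, which passed the adjusted p and not the fold threshold.

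DUSP7 was the 1 member called lower. Homoharringtonine gave 48.0, 49.4 and 62.2 CPM at 100 nM, 42.2, 38.04 and 33.5 CPM at 1000 nM and 33.1, 31.7 and 31.5 CPM at 10000 nM, from a DMSO range of 56.2 to 88.4 CPM. At the upper 2 doses every well was below DMSO. The log2 fold changes were -0.46 ± 0.11, -0.96 ± 0.12 and -1.22 ± 0.11, the last called with an adjusted p of 3.57e-10. DUSP6, the other cytoplasmic ERK phosphatase, had 0.885, 0.683 and 0.680 CPM at 10000 nM, against a DMSO maximum of 0.672, and a log2 fold change of 0.75 ± 0.25 that was not called. DUSP4 had 1 to 4 counts per well at 10000 nM and was not tested.

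Over the 9 homoharringtonine wells, 5 of 9 members fell with dose, DUSP1, DUSP5, DUSP7, DUSP10 and DUSP14, against 22.9% of all genes, and DUSP6 rose, against 21.1%. Trends were called by the adjusted p alone. Of these, DUSP5 and DUSP7 kept the call in every alternative fit, while the other 4 lost it in some, and the wells of 10000 nM had GC slopes of -0.330 to -0.185 where those of 100 nM had -0.157 to 0.294. The part of this gradient in the trends was not tested beyond the fits that carry it as a covariate. Between 1000 nM and 10000 nM edgeR called none of 9 members, against 0.854% of all genes. At an unadjusted p under 0.05 there were 4, and DESeq2 called 1, DUSP2, which had -1.06 ± 0.20 with edgeR and an adjusted p of 0.0606.

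**Figure D3:**
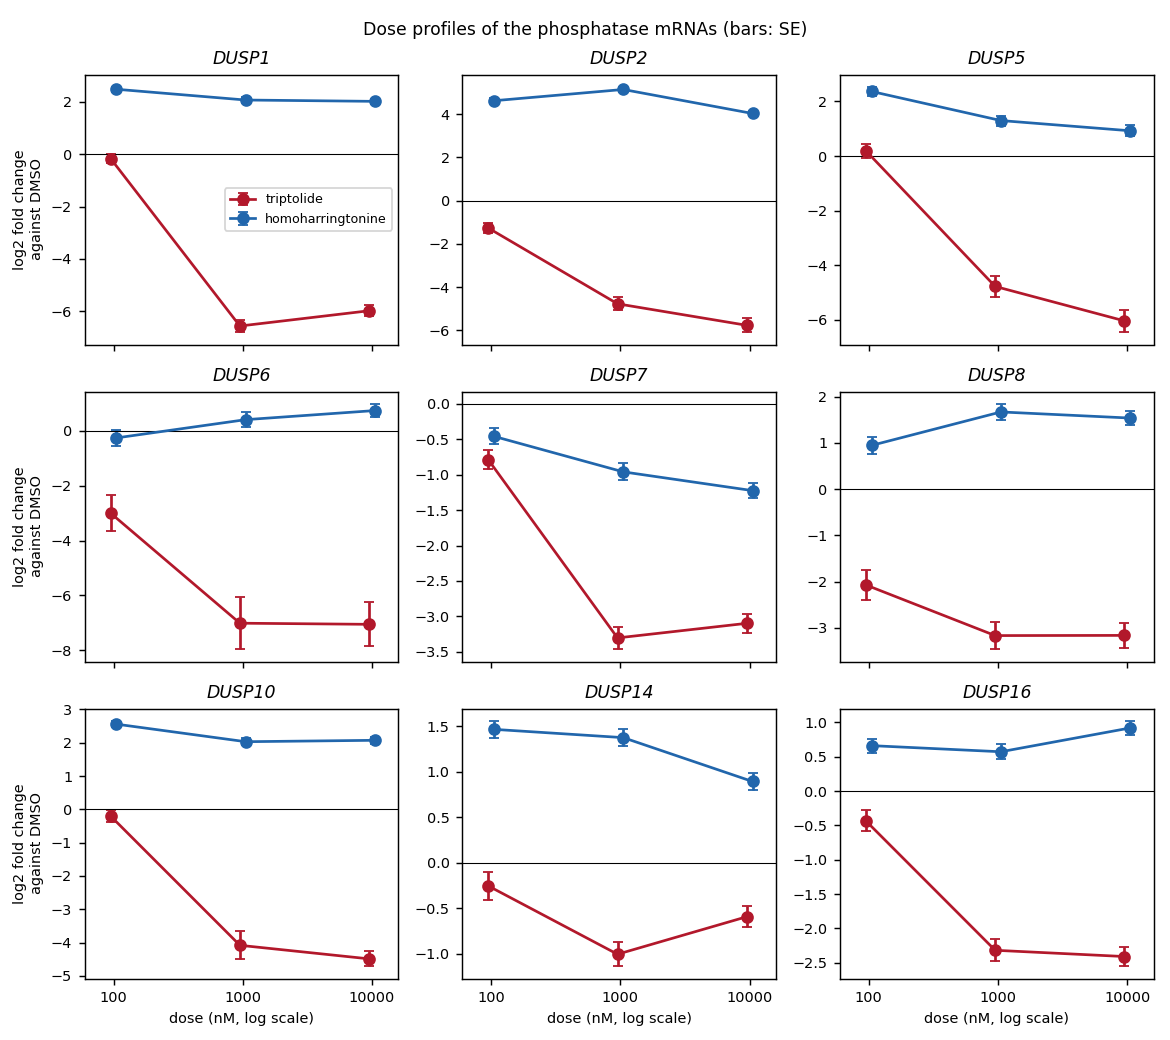
Log2 fold change against DMSO (y axis) by dose in nM on a log axis for the 9 tested members, with triptolide in red, homoharringtonine in blue and bars for the SE. The profiles of DUSP7 lie below 0 for both compounds, at -3.10 and -1.22 at 10000 nM, whereas those of DUSP2 lie at -5.77 and 4.03.

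Triptolide and homoharringtonine were set against each other at each dose in a fit without DMSO, on the same treated wells as above. Triptolide was lower than homoharringtonine for 7 of 8 members tested at 100 nM, against 27.4% of all genes, for 9 of 9 at 1000 nM, against 36.0%, and for 9 of 9 at 10000 nM, against 37.9%. The largest difference was that of DUSP2, at -9.89 ± 0.39 log2 at 1000 nM with an adjusted p of 1.05e-06, and the next was DUSP1 at -8.61 ± 0.30. DUSP7 was the member not called at 100 nM, with -0.24 ± 0.20. At 1000 nM it differed by -2.37 ± 0.27, and DUSP14 by -2.39 ± 0.21, and these were the smallest differences at this dose. The median over members was -6.05 at 1000 nM and -6.47 at 10000 nM, where all genes had -0.30 and -0.17.

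**Figure D4:**
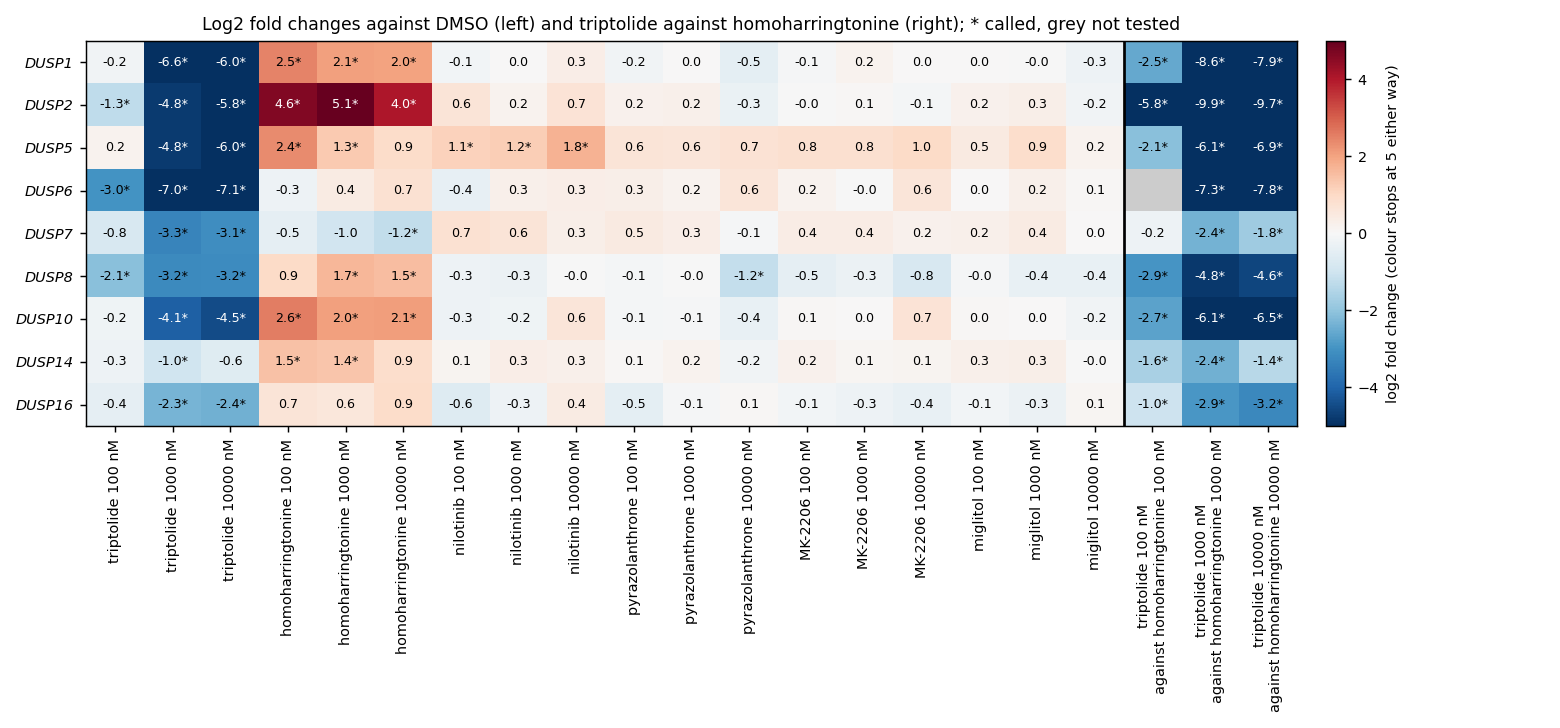
Log2 fold changes of the 9 tested members (rows) in 18 comparisons with DMSO and 3 of triptolide against homoharringtonine (columns), with an asterisk for a called value and grey for a member not tested. The 18 comparisons on the left share the same DMSO wells. Blue fills the triptolide columns at 1000 nM and 10000 nM, red most of the homoharringtonine columns, and the remaining compounds hold 4 asterisks.

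The other 4 compounds gave 4 calls against DMSO, 3 of DUSP5 and 1 of DUSP8. Nilotinib raised DUSP5, which was the 1 of 9 members called at each dose, against 0.704% of genes called higher at 100 nM, 0.693% at 1000 nM and 2.41% at 10000 nM. DUSP5 had 37.2, 27.1 and 30.4 CPM at 100 nM, 40.9, 29.7 and 30.1 CPM at 1000 nM and 50.9, 48.9 and 43.8 CPM at 10000 nM. Each of these 9 wells was above the highest of the 18 DMSO wells, 20.6 CPM. The log2 fold changes were 1.14 ± 0.20, 1.21 ± 0.20 and 1.75 ± 0.18, with adjusted p of 0.000703, 0.000515 and 2.01e-07. Under a replicate block, which kept only 3 DMSO wells, the first 2 were 1.32 and 1.37 and were not called.

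DUSP5 was also above the DMSO mean in all 12 groups of nilotinib, pyrazolanthrone, MK-2206 and miglitol. Miglitol had 15.8, 22.5 and 20.05 CPM at 100 nM, 23.3, 34.7 and 20.03 CPM at 1000 nM and 16.6, 18.2 and 15.5 CPM at 10000 nM. Its log2 fold changes were 0.45 ± 0.21, 0.87 ± 0.21 and 0.20 ± 0.21, none called. The wells of nilotinib and miglitol overlapped at 1000 nM, and at 10000 nM the lowest nilotinib well, 43.8 CPM, was above every well of the other 3 compounds, the highest of which had 34.7 CPM. MK-2206 had values of 0.81 ± 0.19, 0.81 ± 0.21 and 0.97 ± 0.20, and at 10000 nM its wells had 24.5, 32.8 and 27.3 CPM. At 1000 nM and 10000 nM its values passed the adjusted p, at 0.0488 and 0.00409, and not the fold threshold. Pyrazolanthrone at 10000 nM did the same, with 0.73 ± 0.20 and an adjusted p of 0.02145, while its lower doses did not pass the adjusted p.

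DUSP7 was above its DMSO mean in 11 of the 12 groups. It was highest with nilotinib, with 109, 132 and 131 CPM at 100 nM, all above the DMSO maximum of 88.4. The log2 fold change there was 0.74 ± 0.10, with an adjusted p of 4.28e-05, under the fold threshold. The mean at 10000 nM was 89.0 ± 4.81 CPM, and that of miglitol at 1000 nM was 97.9 ± 15.7 CPM.

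Pyrazolanthrone at 10000 nM lowered DUSP8, a phosphatase of JNK, the kinase this compound inhibits. The wells had 4.07, 3.63 and 4.12 CPM, near the lowest DMSO well of 3.51, which was the shallow replicate 10, and below the other 17 DMSO wells. The log2 fold change was -1.20 ± 0.22, with an adjusted p of 0.000850, and DUSP8 was the 1 of 9 members called, against 0.596% of genes called lower. In a fit that carries the GC slope of the libraries it was -0.93 and was not called. MK-2206 at 10000 nM gave 5.56, 4.39 and 4.99 CPM, a value of -0.81 ± 0.20 that passed the adjusted p and not the fold threshold. Over the 12 groups of nilotinib, pyrazolanthrone, MK-2206 and miglitol, the DUSP8 mean was above the DMSO mean in 2. Miglitol gave -0.39 ± 0.20 at 1000 nM and -0.36 ± 0.19 at 10000 nM, neither called. The part of JNK inhibition in the fall was not tested.

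**Figure D5:**
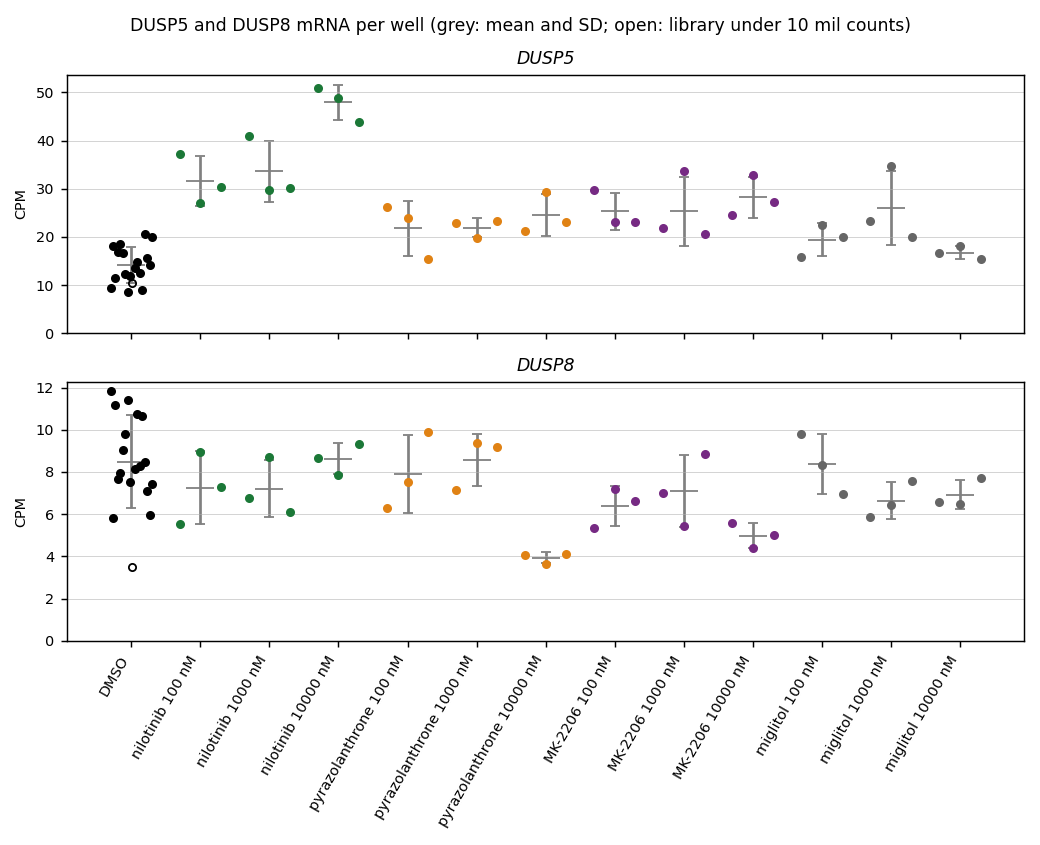
CPM of DUSP5 and DUSP8 per well in DMSO and with nilotinib, pyrazolanthrone, MK-2206 and miglitol, with the mean and SD in grey and open points for libraries under 10 mil counts. The 3 nilotinib wells of 10000 nM lie between 43.8 and 50.9 CPM for DUSP5, and the pyrazolanthrone wells of 10000 nM between 3.63 and 4.12 CPM for DUSP8.

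DUSP10 had 9.99, 10.7 and 11.2 CPM with MK-2206 at 10000 nM and 9.92, 9.84 and 10.2 CPM with nilotinib at 10000 nM. These wells lay above the highest DMSO well of 7.90 CPM. The log2 fold changes, 0.70 ± 0.12 and 0.62 ± 0.11, passed the adjusted p and not the fold threshold. Over the nilotinib doses 2 of 9 members rose, DUSP10 by 0.43 ± 0.09 and DUSP16 by 0.52 ± 0.08 log2 per 10-fold dose, against 2.17% of all genes. DUSP16 had 31.4, 25.9 and 21.7 CPM at 100 nM, below every DMSO well, and 55.3, 50.7 and 56.3 CPM at 10000 nM. Leaving out all wells of replicate 2 or of replicate 3 ended both trend calls.

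Over the pyrazolanthrone doses DUSP7 and DUSP8 fell, 2 of 9 members against 9.95% of all genes, and DUSP16 rose, against 9.19%. None of the 3 kept the call with the GC slope as a covariate. Miglitol doses gave 16.3% of all genes a trend and 0 of the 9 members, with 1 at an unadjusted p under 0.05. MK-2206 doses gave 0.0280% of all genes a trend by edgeR and 0 of 9 members, with 1, DUSP10, at an unadjusted p under 0.05. DESeq2 called 0 members in both.

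In the other comparisons with DMSO edgeR called 0 of the 9 members, and DESeq2 called 0 as well. The shares of all genes given here are of genes called, and they stand beside the 0 members called. They are no background for the counts at an unadjusted p, which is a looser rule. For miglitol the members at an unadjusted p under 0.05 numbered 3 at 100 nM, 4 at 1000 nM and 1 at 10000 nM, where 0.0% of all genes were called at each dose. For MK-2206 they numbered 4, 3 and 6 from 100 nM upwards, where 0.00541%, 0.303% and 0.713% of all genes were called. For pyrazolanthrone there were 3 at 100 nM and 2 at 1000 nM, where 0.931% and 0.0% of all genes were called.

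Over the means of the 19 groups, the members with at least 1 CPM in DMSO followed each other to different degrees. Pearson's r of log2(CPM + 1) was highest for DUSP1 and DUSP10, at 0.970, and lowest for DUSP2 and DUSP7, at 0.284. These correlations are over 19 group means that rest mostly on the triptolide and homoharringtonine groups, and they describe likeness only. The mean of triptolide 100 nM weighs the well of 70414 counts like the deeper wells, so a few reads there can shift it. Likeness without that library was not computed. Among 11841 protein-coding genes the pattern of DUSP1 was most like that of LRRC8E, at 0.994, CSRNP1 and TOP3A, and the pattern of DUSP2 most like those of CCDC174, at 0.988, ZFP36 and NOCT. ZFP36 encodes a protein that binds AU-rich elements, and its mean was 10.2 CPM in DMSO, 146 CPM with homoharringtonine at 1000 nM and 0.438 CPM with triptolide at 1000 nM. DUSP5 was most like ITPRIP, at 0.987, TRIB1 and SPRY2, the last a feedback inhibitor of receptor tyrosine kinase signals. DUSP7 was most like TMEM177, at 0.994, NR2F2 and FRMD8, whose means were also lower with homoharringtonine at 1000 nM than in DMSO. DUSP8 was most like TUFT1, at 0.973, RELT and MIDEAS, and DUSP10 most like KIAA1217, at 0.987, PPP1R15A and CDK7. DUSP14 was most like DNAJB5, at 0.977, RASSF1 and ARID3B, and DUSP16 most like EIF2AK3, at 0.981, FBXO21 and ERCC4.

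Other genes of the pathway were counted in the same comparisons at 10000 nM, where 30.3% of all genes fell and 3025 of 18483 rose with triptolide, 23.7% rose and 23.4% fell with homoharringtonine, and 2.41% rose with nilotinib. Of 15 genes that ERK signals raise in many cells, 12 fell and 0 rose with triptolide at 10000 nM, and 8 rose and 2 fell with homoharringtonine at 10000 nM. The feedback inhibitor SPRY2 fell by 7.48 ± 0.42 on the log2 scale with triptolide, MYC had -5.86 ± 0.17 and EGR1 -5.85 ± 0.85. With homoharringtonine FOS rose by 6.29 ± 0.33, EGR1 by 6.01 ± 0.41 and SPRY4 by 2.34 ± 0.23, whereas MYC fell by 2.01 ± 0.12 and the cyclin CCND1 by 1.28 ± 0.10. With nilotinib at 10000 nM 6 of the 15 rose and 0 fell. EGR1 and FOS varied widely between DMSO wells, with SDs of 117 and 26.5 CPM around means of 90.2 and 17.2 CPM.

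Of 14 dual-specificity phosphatases tested outside the 10 genes, 1 rose and 3 fell with triptolide at 10000 nM, and 2 rose and 6 fell with homoharringtonine at 10000 nM. DUSP9, a cytoplasmic ERK phosphatase of the DUSP6 and DUSP7 group, rose by 1.07 ± 0.15 on the log2 scale with triptolide, from 12.0 ± 2.90 CPM in DMSO to 25.1 ± 2.02 CPM. This rise is relative to the TMM scale, and its value with mitochondrial scaling is not given here. DUSP11, an RNA phosphatase, fell by 3.82 ± 0.13 with triptolide and rose by 1.18 ± 0.08 with homoharringtonine, and DUSP18 fell with both, by 2.44 ± 0.10 and 2.28 ± 0.10. Their median was 0.27 and -0.14 log2, beside -0.16 and -0.04 for all genes.

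Of 9 MAP kinases tested, the substrates of the phosphatases, 2 rose and 2 fell with triptolide at 10000 nM. MAPK9, a JNK, rose by 1.52 ± 0.12 and MAPK3, an ERK, by 1.48 ± 0.11, whereas MAPK14, the p38 alpha kinase, fell by 3.17 ± 0.18 and MAPK7 by 2.16 ± 0.15. The rises of MAPK9 and MAPK3 are relative to the TMM scale. With homoharringtonine 1 of 9 fell, MAPK12, which went from 28.0 ± 3.67 to 14.2 ± 0.599 CPM, and 0 rose. Of the 7 MAP kinase kinases 3 fell with triptolide, MAP2K7, MAP2K4 and MAP2K3, and with homoharringtonine MAP2K3 rose and MAP2K6 fell. Of 11 genes of the RAS and RAF input, KSR1, SOS1 and SOS2 fell with triptolide and BRAF and SOS2 rose with homoharringtonine, BRAF by 2.34 ± 0.19.

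Factors that could bind the promoters or the 3′ UTRs were counted the same way. Of 9 CREB, SRF and ETS family factors, ELK3 rose relative to the TMM scale and ETS2 and CREB1 fell with triptolide at 10000 nM, CREB1 by 1.72 ± 0.12. With homoharringtonine ETS1 and ATF1 rose and ELK3 fell, by 2.62 ± 0.13. Of 6 decay factors acting on AU-rich elements, ZFP36, ZFP36L1 and ZFP36L2 fell with triptolide, and ZFP36 rose with homoharringtonine by 3.41 ± 0.11. These directions were measured in the same wells as those of the phosphatases, and their part in the changes of the phosphatases was not tested.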

How the data were processed

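Population RNA-seq files of 72 wells were used. Per the labels, poly(A) libraries were made with a stranded TruSeq kit, RSEM, HTSeq and DESeq2 are named among the processing tools with GRCh38 as the build, and versions are not given in the sources used here. The deposited expected counts are estimates by the authors' RSEM run of the reads from each gene, and reads shared by related genes are split between them. The deposited TPM columns, made by the authors, correct for transcript length and depth, and the deposited FPKM values were not used. Transcript lengths in the deposited files gave the fragment length of a library. The 92 rows of ERCC spike-ins, 0.0158% to 1.12% of counts, were left out of library sizes and tests. Symbols came from GENCODE release 44, which held 56104 of 60279 identifiers.

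Expected counts were rounded, and edgeR 4.0.16 under R 4.3.3 was the test (filterByExpr with a smallest count of 10, TMM factors, glmQLFit, glmQLFTest, Benjamini-Hochberg over all genes tested). DESeq2 1.42.0 was an alternative. Each group was fitted with the 18 DMSO wells, dose steps and compound pairs on their own wells, and trends on log10 dose over the 9 wells of a compound. CPM levels were scaled by TMM over all 72 wells. SEs were derived from the fold change and its F statistic. Other alternatives were library sizes alone, mitochondrial scaling, no filter, a mean of at least 1 CPM, leaving out libraries under 10 mil or each treated replicate, a replicate block, 1 fit over all wells and the adjusted p alone. GC slope, fragment length and the fit without DMSO replicate 10 were added after seeing the data. The scripts were tested on simulated data, and tables were made with Python 3.11.15.

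The members and the gene lists were chosen with earlier results of these data known. All members are named. From each other list, up to 3 genes with the largest rise and 3 with the largest fall among those called at 10000 nM of triptolide and of homoharringtonine are named, some by direction only. Likeness used the 3 highest correlations among genes that reach 5 CPM in a group. The files and the labels do not say that wells with the same number belong together.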

Additional observations from a re-analysis of the deposited data

Results flagged for a closer look

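The effect of a compound differed between its doses for 5 of the values tested. The test was edgeR's quasi-likelihood test of 1000 nM against 100 nM in the wells of that compound. DUSP1, DUSP4, DUSP5 and DUSP6 did not pass the filter in the triptolide step and were not tested there. In the deeper wells of triptolide 100 nM DUSP1 and DUSP5 had means of 19.6 and 16.7 CPM. With homoharringtonine DUSP5 was lower at 1000 nM by -1.08 ± 0.13 log2, with an adjusted p of 0.00235 and lower values in all 3 wells. With triptolide DUSP2 was lower by -3.72 ± 0.67, DUSP10 by -3.70 ± 0.79, DUSP7 by -2.57 ± 0.28 and DUSP16 by -1.96 ± 0.30, with adjusted p of 0.000185, 0.00100, 3.20e-07 and 2.29e-05. The triptolide group of 100 nM holds the library of 70414 counts and that of 1000 nM the library of 9520374 counts, and all 4 triptolide calls stood without them.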

How the results depend on the processing

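Of 86 called member values, 71 kept direction and call in every alternative that gave a value, and 15 lost the call at least once, the cause of which was not tested. Counts of called members moved by over 1.5 times in the cases that follow. They are given without the share of all genes called under the same alternative. They show how far a count moved and do not set the members against other genes. For the homoharringtonine trend, 6 members, the count was 3 with fragment length, 2 with mitochondrial scaling and 2 to 5 leaving out a replicate. For the nilotinib trend, 2 members, it was 4 with DESeq2, with fragment length and with GC slope, 1 with no filter and 0 to 2 leaving out a replicate. For the pyrazolanthrone trend, 3 members, it was 0 with fragment length or GC slope and 0 to 3 leaving out a replicate. Mitochondrial scaling gave 8 for the miglitol trend, 1 for miglitol 1000 nM, 3 for nilotinib 100 nM, 9 for triptolide 100 nM and 0 for the homoharringtonine step from 100 nM to 1000 nM, where library sizes alone and the replicate block also gave 0. GC slope gave 2 for the MK-2206 trend, 1 for MK-2206 10000 nM and 0 for pyrazolanthrone 10000 nM, and fragment length gave 1 for MK-2206 10000 nM. The replicate block gave 1 for MK-2206 10000 nM and for the homoharringtonine step from 1000 nM to 10000 nM, and 0 for nilotinib at 100 nM and 1000 nM. That step also gave 1 with DESeq2, with no filter and with 1 fit over all 72 wells, which gave 7 for the triptolide step from 100 nM to 1000 nM. The adjusted p alone gave 8 and 9 for homoharringtonine 100 nM and 10000 nM, 2 for its first step, 2 and 3 for MK-2206 1000 nM and 10000 nM, 4, 2 and 5 for nilotinib from 100 nM upwards, 2 and 3 for pyrazolanthrone 100 nM and 10000 nM and 5 for triptolide 100 nM. Leaving out a treated replicate gave 0 to 1 for MK-2206 10000 nM (1 without replicate 1) and for the homoharringtonine step from 1000 nM to 10000 nM (1 without replicate 3 of 1000 nM), and 1 to 2 for nilotinib 100 nM (2 without replicate 1). Among smaller moves, DUSP14 lost its call with triptolide 1000 nM in 7 of 14 alternatives (-0.84 to -0.997) and gained one at 10000 nM with library sizes alone (-1.13) and mitochondrial scaling (-3.39). DUSP7 gained one with homoharringtonine 1000 nM in these same alternatives (-1.10 and -1.004), under the replicate block (-1.07) and without replicate 1 (-1.06). DUSP16 lost its call in triptolide against homoharringtonine at 100 nM with GC slope (-0.91), under the replicate block (-0.93) and without triptolide replicate 1 (-0.98). Mitochondrial scaling turned the sign of 7 values: the trends of DUSP16 with miglitol (-0.30), pyrazolanthrone (-0.027) and nilotinib (-0.038), of DUSP2 (-0.59), DUSP10 (-0.12) and DUSP14 (-0.52) with nilotinib, and DUSP5 with triptolide at 100 nM (-1.47). In deposited TPM 6 ratios of mean levels to DMSO, at homoharringtonine 1000 nM or triptolide 10000 nM, moved by at least their SD, and 10 did not. The deviations of same-numbered wells had a mean r of 0.0238, against -0.0158 for wells of other numbers. Of 25 comparisons, 0 had every pair over 0.1. Each comparison held 3 pairs or fewer, too few to show whether the numbers pair the wells, which was not tested further. Depth limits DUSP4, with at most 5 counts in any well, and the group of triptolide 100 nM.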
